A study of Mus musculus with 24 samples.

Results

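The liver and the kidney of wild-type (WT) mice were compared across the annotated transcriptome, with 3 arrays titled WT Liver and 3 titled WT Kidney taken from a series of 24 arrays over 4 tissues. The 6 samples were chosen by tissue and genotype alone, and no measured value entered the choice. Both groups are C57BL/6J, labelled female and 36 weeks old, with no transgene, deletion or treatment, and they served as controls for mice heterozygous for a Glo1 knockout (Glo1+/-). The arrays are Illumina expression bead arrays, on which a labelled copy of total RNA binds to gene probes. The labels do not say that the liver and the kidney with the same number came from 1 animal, nor whether tissue was pooled, so p-values measure the spread between these samples. A whole organ piece was extracted, and the labels do not say which kidney zone or liver lobe was taken.

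The liver is built mainly of hepatocytes, which secrete most plasma proteins, make bile acids, detoxify ammonia as urea and oxidise drugs. The kidney is built mainly of tubule cells arranged along the nephron, which recover filtered solutes segment by segment and need steady mitochondrial ATP for sodium transport. Both organs make glucose, and both express the nuclear receptor HNF4A, a regulator of hepatocyte and proximal tubule genes.

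The deposited values behave as log2 intensities, though a variance-stabilising transform close to log2 could not be told from them. Their range is 7.96 to 15.10, and dim probes level off near 8. Array medians were 8.23 to 8.24. Arrays of the same tissue correlated across probes, which are not independent replicates, at 0.987 to 0.995 in liver and 0.992 to 0.994 in kidney, and a liver and a kidney array correlated at 0.817 to 0.842. Each gene was read from whichever of its probes was brightest over the 6 arrays, and 7726 of 16593 genes had a mean above 8.5 in at least 1 organ and are called measured. A tissue mean under 8.5 is called near the floor. There, values carry no order and a difference is a lower bound. Probes were compared with themselves between the tissues and never with probes of other genes.

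Of 25697 probes, 922 (3.59%) were called higher in liver and 1021 (3.97%) higher in kidney, at a limma adjusted p under 0.05 and a difference of at least 1 log2 unit. Scaling the arrays to equal ribosomal protein values gave 1298 and 766, with the median difference of the measured genes at 0.25 in place of -0.02. Among the measured genes, 686 (8.88%) were called higher in liver and 790 (10.2%) higher in kidney. With no limit on size, 2052 measured genes (26.6%) passed the test in the direction of liver and 2438 (31.6%) in that of kidney. Genes that differed by at least 4 units numbered 113 in the liver direction and 62 in the kidney direction. Of the called genes, 244 liver genes lay near the floor in kidney and 334 kidney genes lay near the floor in liver. Fewer cells of a type and less RNA per cell cannot be told apart in such organ samples.

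**Figure D1:**
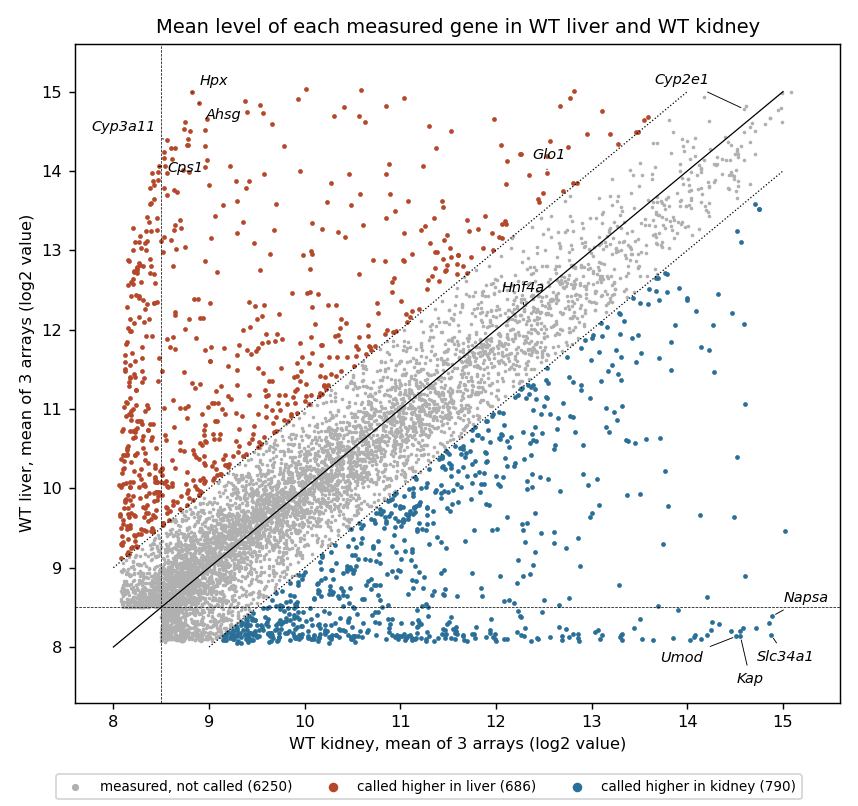
Mean log2 value of each of the 7726 measured genes in 3 WT kidney arrays (horizontal axis) and 3 WT liver arrays (vertical axis); solid line, equal values; dotted lines, a difference of 1 unit; dashed lines, 8.5. The 686 called liver genes and 790 called kidney genes reach the floor of the other organ at the left and lower edges, while Hnf4a and Cyp2e1 lie near the line of equal values.

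Some kidney libraries read genes typical of another tissue above the other kidney libraries. WT kidney 1 read hepatocyte genes above the other kidney libraries: of the 113 genes at least 4 units higher in liver, it was the highest kidney library for 108, by more than 0.5 over the mean of the other two for 59 and by more than 1 for 32. Their median value was 8.96 in WT kidney 1 against 8.23 and 8.20 in WT kidney 2 and 3. The 62 genes at least 4 units higher in kidney showed no such excess in a liver library, with 0 over 0.5. The source of the higher hepatocyte gene values in WT kidney 1 was not tested. Without this library 925 probes were called higher in liver and 1034 higher in kidney, and each of the 293 genes named by rule kept its call.

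**Figure D2:**
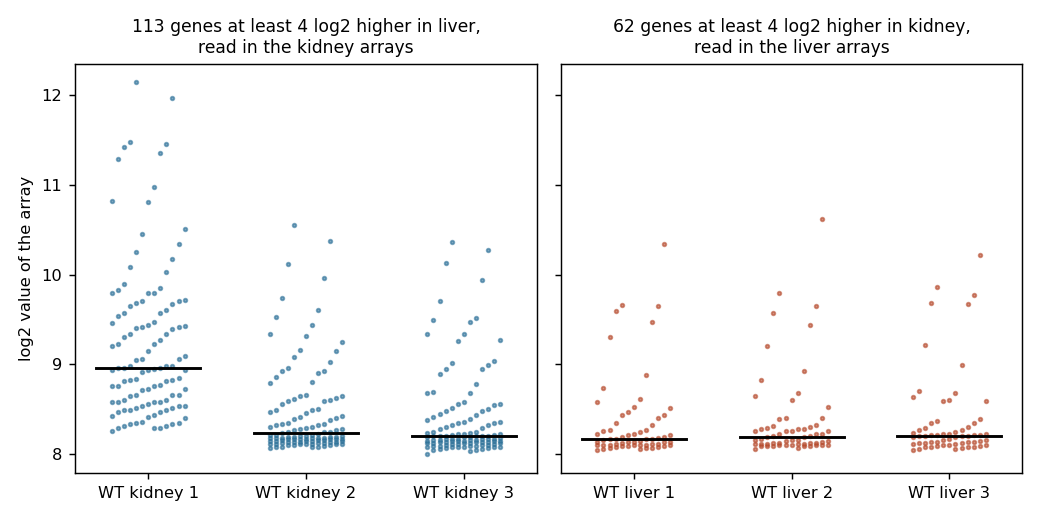
Log2 values, 1 point per gene, of the 113 genes at least 4 units higher in liver on each kidney array (left) and of the 62 genes at least 4 units higher in kidney on each liver array (right); bars, medians. WT kidney 1 has a median of 8.96, above 8.23 and 8.20 in WT kidney 2 and 3, while the liver arrays read kidney genes at medians of 8.17, 8.20 and 8.20.

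Some fat and sex genes also went against the plain labels. Adiponectin (Adipoq), an adipocyte hormone, read 8.11, 9.48 and 10.57 in the kidney libraries and 8.10 to 8.12 in liver, and leptin (Lep) reached 9.34 in WT kidney 3 alone. The lipid droplet gene Plin1 stayed at the floor in kidney (8.08, 8.16 and 8.13). Of 13 matched adipocyte genes 9 were measured, 2 called toward kidney (Adipoq and Lpl, -4.13) and 1 toward liver (Car3, 4.06). The kidney values of Adipoq overlap those of liver, and its call was lost on leaving out any library other than WT kidney 1 (its difference without WT kidney 3 was -0.69). The Xist transcript of the inactive X chromosome lay at the floor in all 6 libraries, between 8.10 and 8.25 over both of its probes. The Y-linked Eif2s3y read 10.74, 10.88 and 11.24 in liver and 10.59, 10.33 and 10.53 in kidney. Other Y-linked genes were dim, with liver and kidney means of 8.76 and 8.51 for Kdm5d and 8.51 and 8.38 for Uty. Usp9y lay at the floor in both organs (8.08 and 8.11). The label female is thus not borne out by Xist and Eif2s3y, and among the Y-linked genes this rests mainly on Eif2s3y. Of the matched markers of other cells, 1 of 17 was measured for lymphocytes, 3 of 13 for exocrine pancreas and 2 of 11 for adrenal cortex. Measured too were 5 of 11 for smooth muscle and 8 of 11 for cholangiocytes. Stellate cells and fibroblasts had 14 of 20 and macrophages 17 of 23. The pancreas gene Cela1 was called toward kidney (-1.54). Both measured adrenal list genes were called toward liver (1.37 and 3.01), while the steroidogenic genes Star, Cyp11a1 and Cyp11b1 lay near the floor in both organs.

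Among the 15 largest differences toward liver were carriers and inhibitors of plasma, P450 enzymes and enzymes of amino acid and purine breakdown. Hemopexin (Hpx), the haem carrier of plasma, read 15.06, 14.91 and 15.00 in liver and 10.09, 8.28 and 8.10 in kidney, a difference of 6.17 ± 0.38 (standard error, adjusted p = 5.3e-08). Fetuin-A (Ahsg), a plasma inhibitor of calcification, read 14.83, 14.84 and 14.89 against 10.34, 8.17 and 8.17, a difference of 5.96 ± 0.43. Both genes were near the floor in WT kidney 2 and 3 and clearly above it in WT kidney 1, and neither overlapped between the organs. The other members were vitronectin (Vtn, 5.87), Cyp3a11 (5.83), Orm1 (5.79), plasminogen (Plg, 5.71), Ces1c (5.71), Cyp8b1 (5.69), Mat1a (5.67), Mug1 (5.64), urate oxidase (Uox, 5.63), Mup21 (5.63), Cps1 (5.58), the asialoglycoprotein receptor Asgr1 (5.56) and Itih4 (5.56). This ranking depends on WT kidney 1. Without that library Apoa1, not among the 15, differed by 6.21, more than Cps1 (5.89) and Asgr1 (5.85).

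Among the 15 largest differences toward kidney were carriers of the tubule, tissue kallikreins, secreted proteins of urine and Miox, which breaks down inositol. Slc34a1, the proximal tubule sodium phosphate cotransporter NaPi-IIa, read 14.83, 14.89 and 14.91 in kidney and 8.09, 8.09 and 8.26 in liver, a difference of -6.73 ± 0.10 (adjusted p = 7.0e-13). Uromodulin (Umod), the main protein of normal urine, read 14.56, 14.62 and 14.36 against 8.16, 8.10 and 8.15. Kap, the kidney androgen-regulated protein, read 14.63, 14.57 and 14.46 against 8.08, 8.11 and 8.21. All 3 were near the floor on every liver array. The remaining 12 were Klk1b27 (-6.56), Napsa (-6.50), Miox (-6.48), Fxyd2 (-6.35), Spink1 (-6.34), Dnase1 (-6.25), Klk1 (-6.06), Klk1b5 (-6.04), Cdh16 (-6.04), Cldn10 (-6.03), Slc22a6 (-5.94) and Hsd3b4 (-5.94). The Klk1 genes are near-identical copies, so a signal of one may include another.

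**Figure D3:**
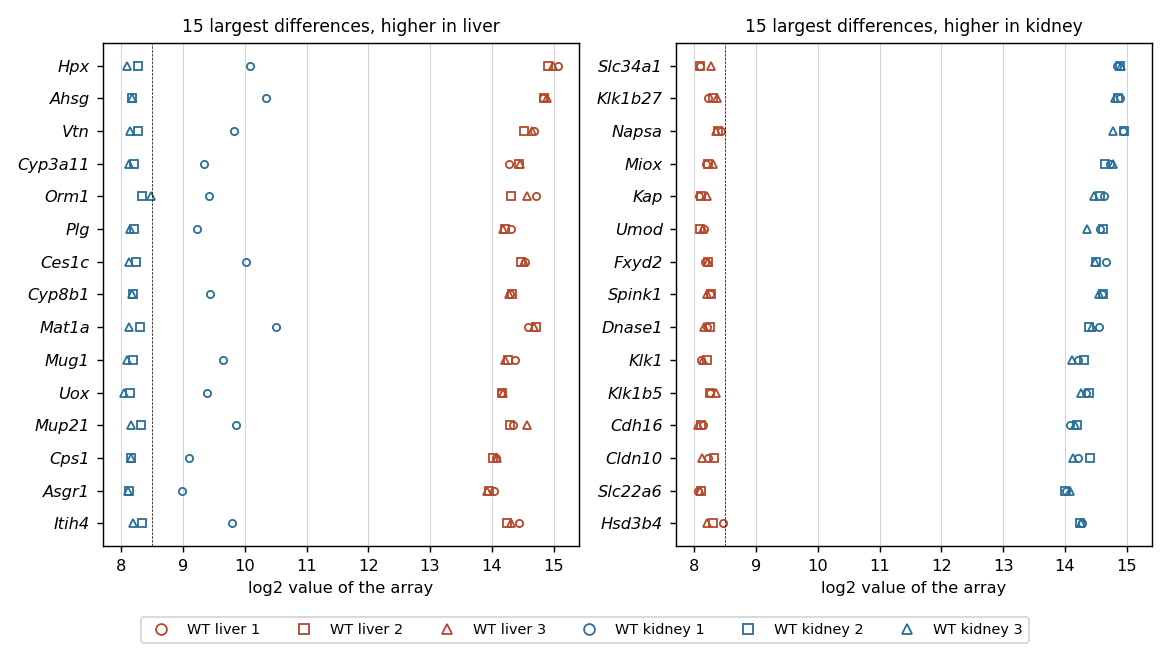
Log2 values on each of the 6 arrays for the 15 genes with the largest differences toward liver (left) and toward kidney (right); colour, tissue; symbol, replicate number; dashed line, 8.5. For the liver genes WT kidney 1 stands between the liver arrays and the other kidney arrays, as with Hpx at 10.09 against 8.28 and 8.10, while the kidney genes stay under 8.5 on each liver array.

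Promoter sequences are shown for genes with large differences whose start carries a match to an HNF1 or HNF4 word or a TATA word, because HNF1 and HNF4 factors serve both organs. RefSeq windows of GRCm38.p6 run from 250 bases before to 50 bases after a start, and the first listed window was used for each of 545 liver-called, 622 kidney-called and 5141 uncalled measured genes. The words searched were GTTAAT, any base and then ATT for HNF1 and CAAAGTCCA for HNF4, on both strands, and TATAAA on the gene's strand with its first base between positions -40 and -20. They do not overlap one another. Each line gives the 150 bases before the start, 5′ to 3′ on the gene's strand, with matches in capitals.
C4bp (chr1:130661619-130661768, minus strand): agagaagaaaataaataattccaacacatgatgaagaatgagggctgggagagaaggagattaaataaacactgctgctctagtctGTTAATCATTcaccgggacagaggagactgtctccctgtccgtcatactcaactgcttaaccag
Cltrn (chrX:164090037-164090186, plus strand): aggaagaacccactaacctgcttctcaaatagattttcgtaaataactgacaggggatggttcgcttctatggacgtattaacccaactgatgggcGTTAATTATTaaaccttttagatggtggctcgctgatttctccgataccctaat
Cyp3a11 (chr5:145879855-145880004, minus strand): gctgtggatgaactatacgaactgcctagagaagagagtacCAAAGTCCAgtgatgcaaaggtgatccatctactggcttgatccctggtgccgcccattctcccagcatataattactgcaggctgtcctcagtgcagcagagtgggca
Cyp8b1 (chr9:121916306-121916455, minus strand): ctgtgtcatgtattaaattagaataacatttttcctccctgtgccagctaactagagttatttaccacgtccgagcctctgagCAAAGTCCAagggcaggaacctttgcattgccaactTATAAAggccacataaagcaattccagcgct
Treh (chr9:44673083-44673232, plus strand): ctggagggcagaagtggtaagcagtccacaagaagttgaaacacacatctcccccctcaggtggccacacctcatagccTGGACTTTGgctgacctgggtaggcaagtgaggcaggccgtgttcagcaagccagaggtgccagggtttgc
Miox (chr15:89334323-89334472, plus strand): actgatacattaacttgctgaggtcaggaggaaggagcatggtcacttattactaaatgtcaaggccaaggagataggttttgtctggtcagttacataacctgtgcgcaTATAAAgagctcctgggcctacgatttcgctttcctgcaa
Kap (chr6:133853668-133853817, minus strand): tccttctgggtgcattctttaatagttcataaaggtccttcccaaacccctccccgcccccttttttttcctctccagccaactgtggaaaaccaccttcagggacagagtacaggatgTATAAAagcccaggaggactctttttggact

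The capitals mark the HNF1 word in C4bp at positions -64 to -55 and in Cltrn at -54 to -45, where C4bp differed by 4.50 toward liver and Cltrn by -5.94 toward kidney. C4bp encodes the complement inhibitor C4b-binding protein. Cltrn encodes collectrin, a partner of apical amino acid transporters of the proximal tubule. The HNF4 word stands in Cyp3a11 at -109, in Cyp8b1 at -67 and in Treh, the brush border trehalase, at -71, with differences of 5.83, 5.69 and -3.35. TATA words stand in Cyp8b1 at -31, in Miox at -40 and in Kap at -31. For each HNF word, genes were picked from both the liver-called and the kidney-called genes with a match. That both organs appear here was set by this choice.

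Over all windows, the HNF1 word was found in 8 liver-called genes (1.47%), 4 kidney-called genes (0.643%) and 17 uncalled measured genes (0.331%), against 118 of 27025 windows in the table (0.437%). HNF4 words were in 6 (1.10%), 4 (0.643%) and 14 (0.272%), against 129 (0.477%). A TATA word in that position was in 4.40%, 2.73% and 1.09%, against 2.22%. The median number of CpG pairs in a window was 9 for liver-called genes, 17 for kidney-called genes and 21 for uncalled measured genes, and 7 over the whole table. A match describes letters and no binding was measured.

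In the lists that follow, a member near the floor in one organ was measured through the other, where it is high, so the counts describe the members and support no test of a list. The shares over all measured genes, 8.88% toward liver and 10.2% toward kidney, are the values to read them against. Shares of members called are plotted by list.

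**Figure D4:**
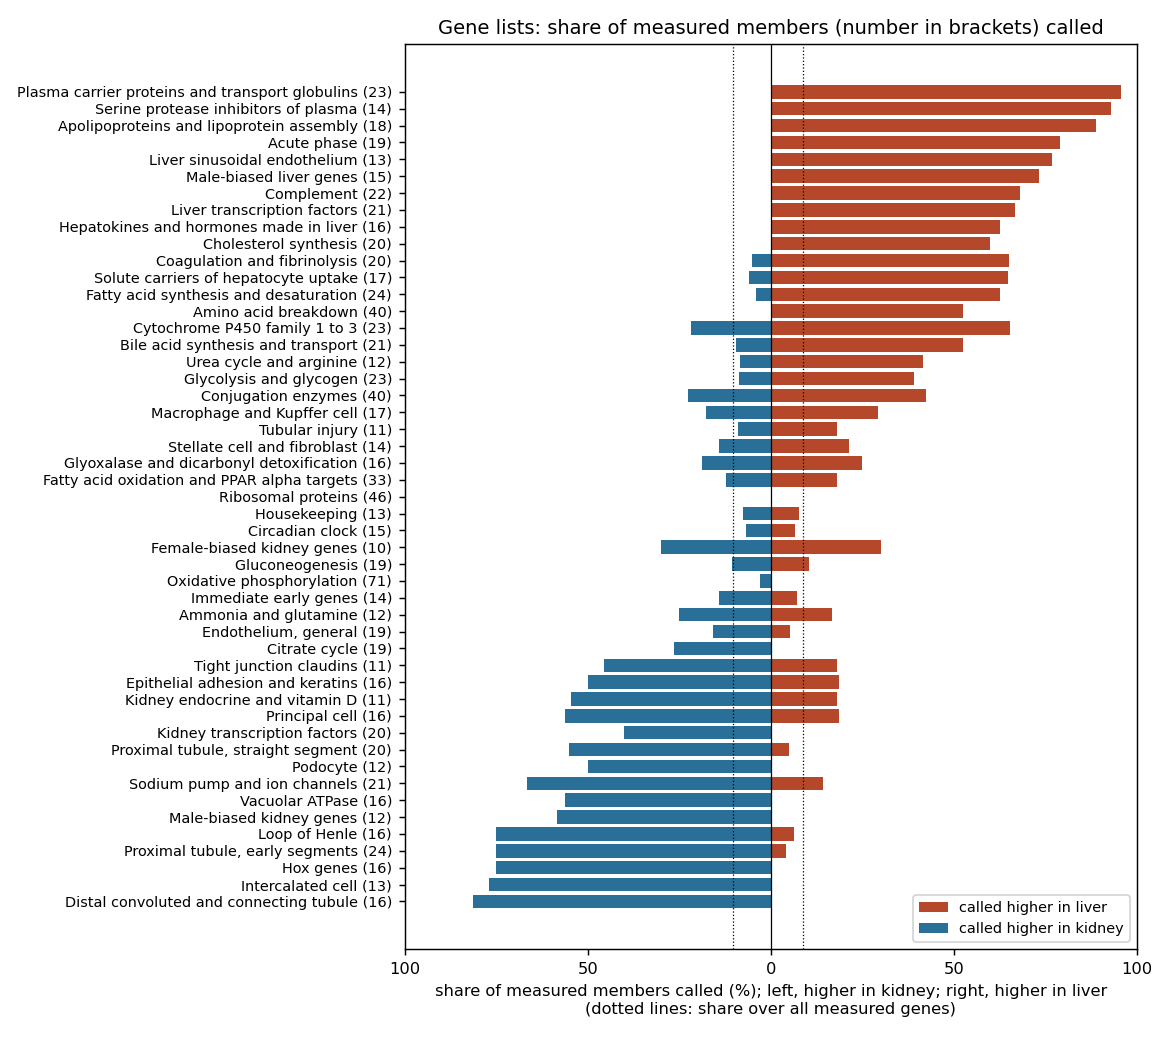
Share of measured members (number in brackets) called higher in liver (right, red) or in kidney (left, blue) for the 49 lists with at least 10 measured members; dotted lines, the shares over all measured genes, 8.88% and 10.2%. Plasma protein lists fill the right side (22 of 23 plasma carriers) and distal nephron lists the left (13 of 16 distal tubule genes), with ribosomal proteins at 0 on both sides.

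Secreted plasma proteins were called toward liver almost throughout. Of 23 measured plasma carriers 22 were called higher in liver and 0 in kidney, with a median difference of 4.30, and of 14 plasma serine protease inhibitors 13 were, with a median of 4.58. Transferrin (Trf), the iron carrier, differed by 5.02 and haptoglobin (Hp), the haemoglobin scavenger, by 5.34. Transthyretin (Ttr), the thyroxine carrier, differed by 2.14. Albumin (Alb) read 9.63, 9.86 and 9.55 in liver and 8.05, 8.09 and 8.08 in kidney, so its probe was dim for a transcript known to be abundant in hepatocytes. The hepatocyte markers Fabp1 and Tat lay near the floor in liver, with means of 8.10 and 8.28. Azgp1 (0.83) was the carrier not called. Of 15 measured male-biased liver genes 11 were called higher in liver and 0 in kidney, among them Mup20 (5.20) and Hsd3b5 (4.84), and of 5 measured female-biased liver genes 1 was called each way.

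Coagulation, complement and acute phase genes followed. In coagulation 13 of 20 measured genes were called higher in liver, with a median of 3.11: factor IX (F9, 5.20), factor X (F10, 4.98), factor XII (F12, 4.90) and prothrombin (F2, 4.69). The exception was Plau, the urokinase that activates plasminogen, which read 12.44, 12.59 and 11.76 in kidney against a liver mean of 8.38 ± 0.13 (SD, n = 3), a difference of -3.89 ± 0.18. Without WT kidney 1, thrombomodulin (Thbd) was called higher in kidney too, where its difference over all arrays was -0.84. Of 22 complement genes 15 were called higher in liver, with terminal components C9 (5.22) and Hc, which encodes C5 (4.49), and the protease factor I (Cfi, 4.82). The C1q chains C1qa (0.49), C1qb (0.46) and C1qc (0.62), made by macrophages, were not called. Acute phase genes gave 15 of 19, with C-reactive protein (Crp) at 5.28, while Saa1 (0.56) and Saa2 (0.39) were not called. WT liver 1 read Lcn2 at 10.28 against 8.72 and 8.68 in the other liver libraries.

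Lipid transport and bile acid genes were also higher in liver. Apolipoproteins and lipoprotein assembly genes gave 16 of 18 called, with a median of 3.79. Apoa1, the main protein of high-density lipoprotein, read 14.81, 14.86 and 14.82 in liver and 11.35, 8.80 and 8.44 in kidney, a difference of 5.30 ± 0.54 that was 6.21 ± 0.13 without WT kidney 1. Lcat, which esterifies plasma cholesterol, differed by 4.88. Of 21 bile acid genes 11 were called higher in liver: Cyp7a1, the rate-limiting enzyme of synthesis, read 12.50, 12.49 and 13.47 against 8.61, 8.13 and 8.08, and the 12α-hydroxylase Cyp8b1 read 14.29, 14.32 and 14.27 against 9.44, 8.20 and 8.17. The bile salt export pump Abcb11 differed by 3.68 and the phosphatidylcholine exporter Abcb4 by 4.57. Both chains of the basolateral bile acid and steroid exporter were higher in kidney, Slc51a by -4.43 ± 0.10 and Slc51b by -3.25 ± 0.10, with liver values of 8.11 to 8.34.

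Nitrogen disposal was split by step. Cps1, which begins the urea cycle in mitochondria, read 14.07, 14.01 and 14.08 in liver and 9.10, 8.16 and 8.16 in kidney, and the last enzyme Arg1 read 14.14, 14.03 and 14.02 against 9.41, 8.11 and 8.11. The ornithine step gene Otc differed by 2.14 ± 0.13. The middle steps differed less: Asl by 1.09 ± 0.13, and Ass1 by -0.05, a gene that the kidney uses to make arginine. Asl was 0.81 and not called with the slide as a block. The basolateral arginine exporter subunit Slc7a7 was higher in kidney (-2.51 ± 0.12). In amino acid breakdown 21 of 40 measured genes were called higher in liver and 0 in kidney, led by the S-adenosylmethionine synthase Mat1a (5.67), the histidase Hal (5.08), Agxt (4.44), Gnmt (3.97) and Hpd (3.92). Branched-chain steps such as Bckdha (0.01) and Ivd (-0.73) were not called.

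Drug-metabolising P450 enzymes were called in both directions. Of 23 measured genes of families 1 to 3, 15 were called higher in liver and 5 in kidney, with a median of 2.56. The Cyp2c genes Cyp2c37 (5.54), Cyp2c50 (5.41) and Cyp2c29 (3.22), the xenobiotic enzymes Cyp3a11 (5.83) and Cyp1a2 (5.07), and Cyp2a12 (5.45) were higher in liver. Kidney held Cyp2j11, which read 13.74, 13.65 and 13.53 against 8.05, 8.14 and 8.07 in liver, Cyp2j13 (-4.55), Cyp2d12 (-3.78), Cyp2s1 (-1.55) and Cyp1b1 (-1.40). The Cyp2d subfamily was itself split, as Cyp2d9, Cyp2d10, Cyp2d13, Cyp2d22, Cyp2d26 and Cyp2d40 were called higher in liver. Cyp2e1, the ethanol-inducible enzyme known from liver, read 14.70, 14.85 and 14.78 in liver and 14.59, 14.62 and 14.57 in kidney, a difference of 0.18 with a 95% interval of 0.03 to 0.34. These readings are close to the highest value in the data, 15.10, where a difference may be understated. Conjugation enzymes gave 17 called toward liver and 9 toward kidney of 40, such as the sulfotransferases Sult2a8 (4.51) and Sult1c2 (-2.47) and the glutathione transferases Gstm6 (3.34) and Gstm5 (-2.37).

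Other liver functions were led by hepatokines, uptake carriers and sinusoidal cells. Igf1, the main circulating growth factor of growth hormone action, read 13.09, 13.04 and 13.24 against 8.76, 8.49 and 8.56, and hepcidin (Hamp), the iron hormone, differed by 5.16 ± 0.44. Hepatokines gave 10 of 16 and uptake carriers 11 of 17 called toward liver, with Slc27a5 (5.42) and Slc25a47 (5.09). Angiotensinogen (Agt), the renin substrate, differed by 2.82. Of 13 measured sinusoidal endothelial genes 10 were called higher in liver, led by Clec4g, which read 12.67, 12.65 and 13.34 against 8.58, 8.22 and 8.34. The Kupffer cell receptors Vsig4 (2.37) and Clec4f (2.27) were higher in liver, while the antigen presentation genes H2-Eb1 (-1.63) and Cd74 (-1.39) were higher in kidney. General endothelial genes gave 1 of 19 toward liver and 3 toward kidney, with Esm1 (-2.77) and Emcn (-2.52). Of stromal genes, Reln (3.50) and Dcn (1.62) were higher in liver, and the smooth muscle actin Acta2 (-2.73) and the basement membrane collagens Col4a1 (-1.82) and Col4a2 (-1.41) were higher in kidney.

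Transcription factors separated the organs in both directions. Liver factors gave 14 of 21 measured genes called higher in liver and 0 in kidney, with a median of 1.62. The forkhead factor Foxa3 read 12.63, 12.51 and 13.01 against 8.66, 8.33 and 8.15, Creb3l3 differed by 3.51, Onecut2 by 3.47, and the constitutive androstane receptor Nr1i3 by 2.92. Hnf4a, shared by both organs, read 12.26, 12.39 and 12.15 in liver and 12.34, 12.15 and 12.37 in kidney, a difference of -0.02 with a 95% interval of -0.25 to 0.21. Kidney factors gave 8 of 20 called higher in kidney and 0 in liver, with the nephron patterning factor Irx3 (-3.19 ± 0.11) first, then Tfap2b (-2.15), Esrrb (-1.80) and Osr2 (-1.77). Pax8 (-0.45), a paired box factor of the developing kidney, was not called.

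Hox genes, which carry position along the body axis, were read almost wholly in kidney. Of 38 matched Hox genes 16 were measured, and of these 12 were called higher in kidney and 0 in liver. Hoxd8 read 11.64, 11.73 and 11.72 in kidney and 8.06, 8.09 and 8.06 in liver (-3.63 ± 0.09). Hoxb7 differed by -3.39, Hoxc6 by -2.96, Hoxd10 by -2.76 and Hoxa7 by -2.69. The called members came from all 4 Hox clusters, and each of the 5 named lay near the floor in liver on every array. Hoxa13 (0.22) was the measured member above 0.

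Most measured nephron genes were higher in kidney along the tubule. Some known markers were not measured, as neither organ mean was above 8.5. These were Lrp2 of the proximal tubule (8.499 in kidney) and Atp6v1g3 of intercalated cells (8.47 in kidney). Calb1 of the distal tubule was at the floor in both organs (8.09 in kidney, 8.10 in liver). Early proximal tubule genes gave 18 of 24 called toward kidney, with a median of -2.55. Slc22a6, the organic anion carrier OAT1, had a mean of 14.03 ± 0.05 (SD, n = 3) against 8.09 ± 0.03 in liver, and the urate carrier Slc22a12 differed by -4.64. The amino acid carriers Slc7a9 (-4.31) and Slc6a19 (-3.77) and the glucose carrier Slc5a2 (-2.87) were called too. The exception was Slc2a9, a urate carrier of hepatocytes as well, at 1.08 ± 0.11, which was 0.94 and not called with the slide as a block, and not called without WT liver 1. In the straight segment 11 of 20 were called toward kidney, including Napsa (-6.50) and the fatty acid hydroxylase Cyp4b1 (-5.70), and Cyp4a14 was higher in liver (2.96 ± 0.25). Male-biased kidney genes gave 7 of 12 toward kidney, among them Kap, and female-biased kidney genes 3 of 10 each way.

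Most measured genes of the thick limb and the distal nephron were called toward kidney. Loop of Henle genes gave 12 of 16 called toward kidney. Slc12a1, the sodium potassium chloride cotransporter blocked by loop diuretics, read 13.48, 13.88 and 13.23 against 8.07, 8.12 and 8.11. The paracellular claudin Cldn10 differed by -6.03 and Cldn16, which passes magnesium, by -2.14. Foxq1 was higher in liver (1.44 ± 0.26). Distal convoluted and connecting tubule genes gave 13 of 16: the sodium pump regulator Fxyd2 (-6.35), tissue kallikrein Klk1 (-6.06), epidermal growth factor (Egf, -5.16), parvalbumin (Pvalb, -3.73) and the thiazide-sensitive cotransporter Slc12a3 (-1.79).

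In the collecting duct and the glomerulus, the medians were -1.19 for principal cell genes, -2.16 for intercalated cell genes and -1.19 for podocyte genes. Principal cell genes gave 9 of 16 called toward kidney: Hsd11b2, which shields the mineralocorticoid receptor from cortisol and corticosterone, read 11.16, 11.15 and 11.03 against 8.07, 8.11 and 8.15, and the sodium channel subunits Scnn1b (-2.95) and Scnn1g (-2.95) and the water channels Aqp3 and Aqp2 (-1.45) were called, Aqp3 with means of 11.17 in kidney and 8.17 in liver. The keratins Krt18 (2.73) and Krt8, listed there too, were higher in liver, and the call of Krt8 (1.11) was lost without WT liver 1 (0.93). Intercalated cell genes gave 10 of 13, with the bicarbonate exchangers Slc26a4 (-3.21) and Slc4a1 (-2.95). Podocyte genes gave 6 of 12: Col4a4 (-3.10) and Col4a3 (-1.79) of the glomerular basement membrane, Podxl (-1.69) and Wt1 (-1.49).

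Hormone, ion and creatine genes completed the kidney side. Klotho (Kl), the FGF23 co-receptor, read 13.30, 13.26 and 13.40 against 8.09, 8.14 and 8.05. The vitamin D catabolic enzyme Cyp24a1 (-4.06), the vitamin D receptor Vdr (-3.59) and the parathyroid hormone receptor Pth1r (-3.44) were higher in kidney. Sodium pump and channel genes gave 14 of 21 toward kidney, with the pump subunit Atp1b1 (-3.54) and Kcnj15 (-4.65), and 3 toward liver, with the aquaglyceroporin Aqp9 (5.40) and Aqp8 (3.18). Creatine synthesis was split as steps: Gamt, which methylates guanidinoacetate, was higher in liver (2.31 ± 0.15), while Ckmt1 (-3.53), the creatine carrier Slc6a8 (-3.48) and Ckb (-2.89) were higher in kidney. Gatm, which makes guanidinoacetate, read 8.74, 8.67 and 9.38 in kidney and 8.12 to 8.15 in liver, a difference of -0.80 that passed the test and missed the size limit.

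Fuel genes differed by pathway. Cholesterol synthesis gave 12 of 20 called toward liver and 0 toward kidney, with Fdps (3.50) and Msmo1 (2.72) first and a median of 1.32. That median was 0.91 with the slide as a block and 0.99 in Glo1+/- arrays. Hmgcs1 (0.20), an early step, was not called. Fatty acid synthesis gave 15 of 24 toward liver, with the lipogenic regulator Thrsp (4.15), Elovl2 (2.51) and the desaturase Scd1 (2.28), and 1 toward kidney, Fads3 (-2.30). In glycogen metabolism the liver phosphorylase Pygl differed by 3.13 and liver glycogen synthase Gys2 by 1.68, while the glycolytic Aldoa (-2.32) was higher in kidney. Pairs were also listed of 1 gene for liver and 1 for kidney, such as isozymes, carriers, transcription factors, cadherins or steps of a pathway. Of 25 pairs, 9 had both genes measured. In 2 the liver gene was called toward liver and the kidney gene toward kidney: pyruvate kinases Pklr (1.20) and Pkm (-2.29), and channels Aqp9 (5.40) and Aqp2 (-1.45). In 0 pairs was a gene called toward the opposite organ.

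Glucose production and fatty acid oxidation showed no shared direction. Gluconeogenesis genes gave 2 of 19 called each way with a median of 0.06, a sign that turned under 75th percentile scaling (-0.0072). Pck1 (0.74), the committing enzyme, Fbp1 (-0.40) and G6pc (-0.24), which releases glucose, were not called, while Fbp2 was higher in kidney (-2.03 ± 0.11). Fatty acid oxidation genes gave 6 of 33 toward liver and 4 toward kidney with a median of 0.05, which was -0.055 without WT liver 3, and Fabp3 differed by -3.98. Ketone genes gave 3 of 7 toward kidney and 0 toward liver: Oxct1, the ketone-activating enzyme that hepatocytes lack, read 13.72, 13.75 and 13.61 against 8.58, 8.40 and 8.59, and the monocarboxylate carrier Slc5a8 differed by -5.16. In glutamine handling Slc38a3 (4.13) and Slc1a2 (3.78) were higher in liver and Slc1a1 (-4.75) in kidney.

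Many mitochondrial genes were slightly higher in kidney. The counts with no size limit are to be read against the 31.6% of all measured genes that passed toward kidney, and housekeeping genes had a median of -0.37. Of 71 measured oxidative phosphorylation genes 2 were called, Cox7a1 (-2.01) and Ndufa12 (-1.13), but 59 passed the test toward kidney with no size limit and 0 toward liver, with a median of -0.51. Citrate cycle genes gave 5 of 19 called, among them Idh2 (-1.37) and Idh3g (-1.31), and 16 passed with no size limit, with a median of -0.65. Ribosomal protein genes gave 0 called of 46, with a median of -0.22 and 19 that passed toward kidney with no size limit. Scaled to equal ribosomal protein values, the medians were -0.24 for oxidative phosphorylation and -0.38 for the citrate cycle. The proton pump of acid-secreting cells and lysosomes, the vacuolar ATPase, gave 9 of 16 called toward kidney with a median of -1.08, led by Atp6v1c2 (-2.16) and Atp6v1b2 (-2.14). Its median was -0.75 with the slide as a block.

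**Figure D5:**
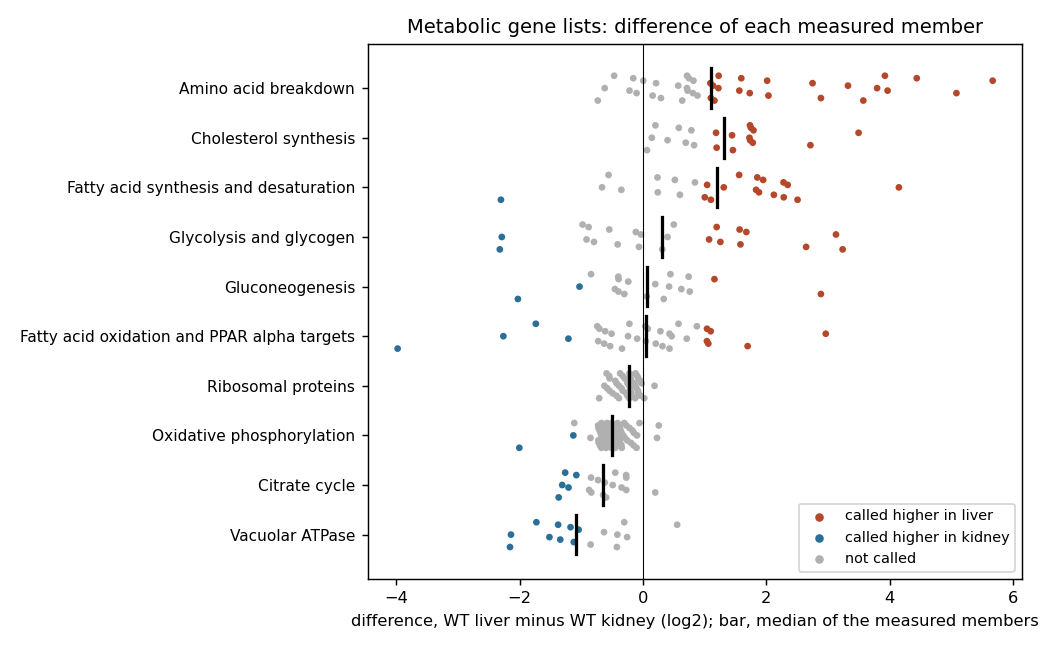
Difference of each measured member, WT liver minus WT kidney (log2), in 10 metabolic lists; red, called higher in liver; blue, called higher in kidney; grey, not called; bars, medians. Cholesterol synthesis has a median of 1.32 with all members above 0, and oxidative phosphorylation a median of -0.51 with few members called.

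Dicarbonyl detoxification was divided as well. Glo1, which encodes glyoxalase 1 and is the gene deleted on 1 allele in the other mice of the series, read 13.91, 14.16 and 13.85 in WT liver and 12.51, 12.62 and 12.45 in WT kidney, a difference of 1.44 ± 0.10 (adjusted p = 2.0e-07). Its groups did not overlap. Hagh, which encodes glyoxalase 2, differed by 0.62 and was not called. Aldehyde dehydrogenases Aldh1a1 (4.62), Aldh1a7 (2.94) and Aldh1b1 (1.84) were higher in liver, and the aldo-keto reductase Akr1a1 (-1.23), glutathione synthetase Gss (-1.42) and Lgals3 (-1.87), a receptor of glycation end products, were higher in kidney. With equal ribosomal protein values Akr1a1 was -0.96 and not called.

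Some called genes lay side by side in the genome, at gene clusters and elsewhere. Runs of at least 3 neighbouring measured genes called the same way numbered 25 toward liver, with 94 genes, and 11 toward kidney, with 34 genes. Over all measured genes 8.88% were called toward liver and 10.2% toward kidney. The number of runs such shares give by position alone was not computed, so the counts are descriptive. Some runs are not of 1 gene family, such as Med28, Slit2 and Ppargc1a toward kidney. The longest was the serpin cluster of chromosome 12, with 9 genes from Serpina1b to Serpina3n and differences of 1.77 to 5.50. A run of 7 on chromosome 19 held the Cyp2c genes, and runs of 4 held Apoa1, Apoc3, Apoa4 and Apoa5 on chromosome 9 and Apoc2, Apoc4, Apoc1 and Apoe on chromosome 7. Toward kidney the longest run was Hoxd10, Hoxd9, Hoxd8 and Hoxd4 on chromosome 2. Copies in such clusters share sequence, so their probes may read each other's transcripts.

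Bright genes shared by both organs were described by interval. Of 602 genes with both means above 12, 234 had a 95% interval of the difference within 0.5 unit on either side of 0, while 32 were called toward liver and 30 toward kidney. Genes named by rule among these were the antioxidant enzyme Gpx1, the acyl-CoA binding protein Dbi, ferritin heavy chain Fth1, ribosomal proteins Rpl41 and Rplp1, the ATP synthase subunit Atp5g3, and Cyp2e1. Gpx1 read 14.94, 14.99 and 15.06 in liver and 15.09, 15.07 and 15.10 in kidney. Its difference was -0.09. These values lie at the top of the scale, whose highest value of 15.10 is Gpx1 on a kidney array. Whether bright probes saturate there was not tested, so a small difference does not show that the levels are alike.

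The same comparison in 3 liver and 3 kidney arrays of Glo1+/- mice, which no fit above used, kept the sign of 922 of 922 liver calls and 1021 of 1021 kidney calls. Of these, 797 and 927 were called there too. A test of the difference between genotypes in the liver minus kidney contrast called 22 of 25697 probes (0.0856%). Slide runs with genotype and tissue there: WT liver 1 and 2 lay on slide 1, Glo1+/- kidney 2 and 3 on slide 3 and the other 8 arrays on slide 2. Both the slide block and slide 2 alone therefore rest on the lone WT liver 3 and the lone Glo1+/- kidney 1. With the slide as a block 37 probes were called, of which 8 were among the 22, and within slide 2 alone 32 were called, of which 7 were among the 22.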

How the data were processed

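Total RNA was measured on bead arrays, 3 of WT liver and 3 of WT kidney. The deposited log2 values were made by the authors with lumi 2.32.0, per the submitters' processing notes; the background correction, transformation and normalization behind them were not given in the sources used here. Dim probes may understate differences. Platform annotation named 1 gene for 23978 of 25697 probes, none for 1719. Values were used as deposited. limma 3.58.1 in R 4.3.3 (lmFit, eBayes with trend, 2-sided, Benjamini-Hochberg over all probes) gave differences, standard errors and 95% intervals, and its code was tested on simulated data. An exact test of 3 against 3 cannot go below p = 0.1. The number of arrays limits precision. WT liver 1 and 2 lie on slide 1, the other WT arrays on slide 2.

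The 60 lists hold 1352 symbols, of which 1180 matched. Genes named are the 15 largest called differences each way, up to 5 called members of a list each way, members called against their list, the pairs, and the 15 brightest like-level genes; others named in the text were chosen after their values were seen. Members, lists and tests were chosen with earlier results of these data known. Alternatives were scaling, normalization, variance prior, filter, slide, block, fold limit, probe, left-out arrays and Glo1+/- mice. Promoter windows are RefSeq's.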

Additional observations from a re-analysis of the deposited data

Results flagged for a closer look

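For 10 genes called in WT, read by the brightest probe of each gene, the liver minus kidney difference itself differed between Glo1+/- and WT mice (limma interaction, adjusted over all probes). The change, Glo1+/- minus WT, was toward liver for Hp (1.23, adjusted p = 0.030), Nr1i3 (1.02, adjusted p = 0.0055), Cpsf4l (0.85, adjusted p = 0.030) and Itgb6 (0.83, adjusted p = 0.034). It was toward kidney for Cyp2c55 (-1.07, adjusted p = 0.0055), Ccnd1 (-1.03, adjusted p = 0.034), Cyp2d12 (-1.02, adjusted p = 0.0023), Mmd2 (-0.71, adjusted p = 0.035), Acaa1b (-0.70, adjusted p = 0.026) and Alb (-0.68, adjusted p = 0.030).

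With the slide as a block, the differences were the same as within slide 2 alone. Both rest on the lone WT liver 3 and the lone Glo1+/- kidney 1, so they are not separate checks. The sizes were -1.03 for Cyp2d12, 1.00 for Nr1i3, -1.40 for Ccnd1, -0.84 for Acaa1b and -1.11 for Cyp2c55. Hp, Alb, Cpsf4l, Itgb6 and Mmd2 did not pass with the slide as a block (adjusted p = 0.13 to 0.16), with the same direction. Pcsk4 is not among the 10 because its brightest probe did not pass, but dimmer probes of it called in WT did (0.83, adjusted p = 0.015, and 0.65, adjusted p = 0.038).

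The P450 gene Cyp2d12 read 12.11, 12.31 and 12.28 in WT kidney and 13.14, 13.15 and 13.19 in Glo1+/- kidney, with liver values of 8.31 to 8.49 in both genotypes. The xenobiotic receptor Nr1i3 read 10.82, 11.22 and 11.05 in WT liver and 11.95 to 12.07 in Glo1+/- liver. Haptoglobin (Hp) read 9.80, 8.90 and 9.49 in WT kidney and 8.26, 8.30 and 8.21 in Glo1+/- kidney, with liver values of 14.69 to 14.79 in WT and 14.79 to 14.87 in Glo1+/- mice. Each of the 10 kept the direction of its WT difference in the Glo1+/- arrays.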

How the results depend on the processing

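No called probe changed sign under any alternative. For several of them this was fixed in advance, as a call needs at least 1 log2 unit. The variance prior, filter and replicate block leave differences unchanged, and ribosomal scaling moved the median difference only from -0.02 to 0.25. With no size limit 3241 probes passed toward liver and 3857 toward kidney, and at 2 log2 units the probes called higher in liver numbered 434 and the probes called higher in kidney 370. Leaving out 1 array gave 919 to 948 liver calls and 1012 to 1052 kidney calls. With the replicate number as a block the counts were 922 and 1022, and no main call was lost. Same-numbered arrays deviated together at correlations of 0.113, 0.0995 and 0.240, and arrays of unlike number at -0.208 to 0.107. These values do not settle whether equal numbers share an animal. With the slide as a block, the liver side of the WT comparison rests on WT liver 3, as slide 1 held no kidney array. Within slide 2 (liver 3 against kidney 1 to 3, the lone liver array assumed to vary like the kidney arrays) 835 of 922 liver calls and 929 of 1021 kidney calls were kept. Genes with probes called in opposite directions numbered 0, 1 with ribosomal scaling and 0 to 1 on leaving out arrays. Of 293 named genes, 17 lost their call in Glo1+/- mice, 13 with the slide as a block, 13 within slide 2, 12 with ribosomal scaling, and at most 6 under each other alternative.

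The probes with a difference between genotypes, 22 in all, were less stable, under alternatives chosen after seeing the data. With the slide as a block they numbered 37, within slide 2 alone 32 (its lone WT liver and lone Glo1+/- kidney array assumed to vary like the others), and over left-out arrays from 4 (without Glo1+/- kidney 3) to 233 (without WT liver 3). The 10 genes named for it, which were chosen for passing the test, kept their direction under each alternative. Over left-out arrays, from 3 (without Glo1+/- kidney 3) to 10 (without WT liver 3) of them passed at an adjusted p under 0.05. The slide block rests on the same lone arrays as slide 2 alone.

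List medians close to 0 changed sign, with causes not tested. With 75th percentile scaling these were Gluconeogenesis (-0.0072), Fatty acid oxidation and PPAR alpha targets (-0.022) and Ammonia and glutamine (-0.045). With ribosomal scaling they were Endothelium, general (0.058), Immediate early genes (0.14) and Ribosomal proteins (0.045). With the slide as a block, and equally within slide 2, they were Glyoxalase and dicarbonyl detoxification (-0.0061), Endothelium, general (0.050) and Erythroid cell (0.064). In Glo1+/- mice they were Gluconeogenesis (-0.11), Ammonia and glutamine (-0.39), Adipocyte (0.028) and Erythroid cell (0.030). Over left-out arrays the median ran from -0.0038 (without WT kidney 2) to 0.19 for Gluconeogenesis, from -0.055 (without WT liver 3) to 0.22 for Fatty acid oxidation and PPAR alpha targets, and from -0.37 (without WT liver 3) to 0.49 for Female-biased liver genes.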

Other observations

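Of the called genes, 410 toward liver and 604 toward kidney stood in none of the hand-written lists. Those named here were chosen after their values were seen, and they are described with no test beyond the fit. Toward liver they included the paraoxonase Pon1 (5.55), the aldehyde oxidase Aox3 (5.26), Rdh7 (5.19), angiogenin (Ang, 5.06), the glycolate oxidase Hao1 (4.76), Gch1 (4.68), which begins tetrahydrobiopterin synthesis, and Pemt (4.62), which methylates phosphatidylethanolamine. Nrn1, known mainly as a neuronal protein, read 12.99, 13.30 and 12.96 in liver and 8.54, 8.16 and 8.28 in kidney.

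Toward kidney they included uroguanylin (Guca2b, -5.93), the plasma glutathione peroxidase Gpx3, whose plasma protein is made by proximal tubule cells (-5.56), amnionless (Amn, -5.21), the partner of cubilin, the mitochondrial acetyl-CoA synthetase Acss1 (-5.15) and D-amino acid oxidase (Dao, -4.95). Gpx3 read 15.02, 15.05 and 15.00 in kidney and 9.30, 9.43 and 9.67 in liver. The tetraspanin Cd63 read 14.44, 14.53 and 14.50 in kidney and 9.59, 9.65 and 9.68 in liver.

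Within a tissue, 127 measured genes had an SD over 0.5 across the liver arrays and 85 across the kidney arrays. Hsph1, a heat shock protein, read 10.04, 9.95 and 12.15 in liver and 11.33, 11.18 and 12.14 in kidney, and Cish, a cytokine signalling inhibitor, read 9.46, 9.33 and 11.50 in liver and 10.07, 10.19 and 11.79 in kidney, so replicate 3 was the highest in both organs for both genes. Psca read 11.18 in WT kidney 2 and 8.19 to 8.46 on the other 5 arrays.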
